A study of Mus musculus with 6 samples.

Results

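The genes of glycolysis and of the pentose phosphate pathway were followed in mouse macrophages stimulated with LPS with or without the USP7 inhibitor HBX41,108. The 38 genes were chosen by name from the 34844 gene names of the array, to cover glucose uptake, the steps from glucose to pyruvate, lactate formation and export, control of pyruvate dehydrogenase, the regulator *Hif1a* and the pentose phosphate pathway. No measured value of these arrays entered the rule, although the genes were chosen with earlier results of these data known. Of the 38 genes, 36 were well above background on all 6 arrays, *Pfkfb2* was on 3 arrays and *Pdk4* was on 0.

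Glycolysis splits glucose into pyruvate and yields ATP without oxygen, and the hexokinase and phosphofructokinase steps are its main points of control. Pyruvate is either reduced to lactate, which leaves the cell through monocarboxylate transporters, or enters mitochondria through pyruvate dehydrogenase, which the PDK kinases switch off. The pentose phosphate pathway branches off at glucose 6-phosphate and supplies NADPH and ribose 5-phosphate, and macrophages activated by LPS are known for raised glycolysis and for lactate release under control of the transcription factor HIF-1.

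Gene expression was measured in macrophages grown from the bone marrow of wild type female C57BL/6 mice, given as C57BL6/J in the study's methods. The mice were aged 6 to 8 weeks in the sample labels and somewhat older in the study's methods. The cells were grown for 7 days in culture medium supplemented with medium taken from L929 cells, a fibroblast line that secretes the growth factor M-CSF. Per the study's methods the cells were then replated without that supplement and rested overnight before use. The 3 groups were untreated cells, cells given LPS, a bacterial ligand of TLR4, for 4 h, and cells given 10 μM HBX41,108, a small molecule inhibitor of the deubiquitinase USP7, for 30 min before the same LPS stimulation (LPS+USP7i). The LPS dose is 100 ng/ml in the series design and 100 ng/μl in the sample labels. Whether cells given LPS alone also received the solvent of HBX41,108 is not stated in the sources used here, and no group received the inhibitor without LPS. Each group had 2 arrays, from independent experiments, and their small number limits how precise the values are.

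The cells carried macrophage transcripts. All 8 macrophage markers found on the array, among them *Csf1r*, *Cd68*, *Lyz2* and *Mertk*, were well above background on all 6 arrays. Of 6 fibroblast markers, 4 were on no array and 0 were on all 6. Of 5 erythroid markers, 3 were on no array and 0 were on all 6. The corresponding counts on all 6 arrays were 4 of 6 for neutrophil, 2 of 6 for T cell, 2 of 5 for B cell and 1 of 5 for dendritic cell markers. Of 59305 spots per array, 25002 to 27467 were well above background and 0 were saturated. All arrays lay on 1 slide, where row 1 held untreated, row 2 LPS and row 4 LPS+USP7i samples, so row and treatment cannot be told apart. In RNA from whole cultures, fewer cells that carry a transcript and less of it per cell cannot be told apart either.

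Promoters of 5 genes are shown to set 2 patterns described below side by side, a choice made after their values were seen and not a ranking by size. *Slc2a1*, *Pgk1* and *Slc16a3* were higher in LPS+USP7i cells than in untreated cells, whereas *Slc2a6* and *Pdk3* were raised by LPS and lower with the inhibitor. *Pfkp* and *Pfkl*, the remaining gene of each pattern, are not printed, and their windows hold 0 of the cores described next. Each window runs from 250 bases before to 50 bases after the transcription start in RefSeq (GRCm38.p6) and is written 5′ to 3′ on the strand of the gene. Capitals mark ACGTG, the core of the HIF response element, on either strand, where its reverse complement is CACGT. The *Slc2a1* window (chr4:119108495-119108794, plus strand) holds 1 such core, the *Pgk1* window (chrX:106186850-106187149, plus strand) holds 2, the *Slc16a3* window (chr11:120948817-120949116, plus strand) holds 2, the *Slc2a6* window (chr2:27027949-27028248, minus strand) holds 0, and the *Pdk3* window (chrX:93832101-93832400, minus strand) holds 1.
Slc2a1: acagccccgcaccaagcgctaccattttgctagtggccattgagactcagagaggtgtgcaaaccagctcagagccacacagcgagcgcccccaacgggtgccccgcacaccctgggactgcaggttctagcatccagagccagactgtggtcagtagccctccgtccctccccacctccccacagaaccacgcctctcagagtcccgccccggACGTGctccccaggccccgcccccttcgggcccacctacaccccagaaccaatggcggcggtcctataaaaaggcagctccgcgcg
Pgk1: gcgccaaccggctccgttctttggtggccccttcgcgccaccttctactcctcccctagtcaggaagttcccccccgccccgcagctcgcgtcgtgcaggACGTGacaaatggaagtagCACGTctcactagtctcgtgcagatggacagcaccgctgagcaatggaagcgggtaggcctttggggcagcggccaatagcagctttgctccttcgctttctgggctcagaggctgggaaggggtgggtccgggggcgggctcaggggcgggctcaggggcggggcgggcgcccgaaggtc
Slc16a3: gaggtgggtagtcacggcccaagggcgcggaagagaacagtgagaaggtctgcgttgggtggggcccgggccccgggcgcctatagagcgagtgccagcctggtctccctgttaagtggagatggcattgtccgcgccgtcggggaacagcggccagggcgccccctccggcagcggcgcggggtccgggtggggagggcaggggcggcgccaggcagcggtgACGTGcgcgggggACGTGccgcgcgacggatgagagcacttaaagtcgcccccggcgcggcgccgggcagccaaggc
Slc2a6: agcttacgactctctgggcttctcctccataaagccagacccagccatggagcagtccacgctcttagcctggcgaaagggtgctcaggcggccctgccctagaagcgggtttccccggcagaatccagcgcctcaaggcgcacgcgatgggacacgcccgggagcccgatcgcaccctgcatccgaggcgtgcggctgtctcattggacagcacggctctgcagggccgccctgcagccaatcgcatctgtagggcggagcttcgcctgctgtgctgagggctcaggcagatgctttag
Pdk3: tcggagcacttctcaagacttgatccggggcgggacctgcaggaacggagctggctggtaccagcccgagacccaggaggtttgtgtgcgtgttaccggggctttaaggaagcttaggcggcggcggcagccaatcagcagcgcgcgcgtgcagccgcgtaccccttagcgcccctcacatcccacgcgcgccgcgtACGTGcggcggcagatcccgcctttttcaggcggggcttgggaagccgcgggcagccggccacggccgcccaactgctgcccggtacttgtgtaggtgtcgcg

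Windows were found for 37 of the 38 genes, 56 windows in all, and those of one gene can overlap. The HIF core occurred in 23 of the 56 windows (41.1%), against 19.6% of 32851 windows of all genes, and in at least 1 window of 19 genes. It was present in 4 of 7 genes raised by LPS, 7 of 12 lowered by LPS, 3 of 6 higher with the inhibitor than with LPS alone, and 1 of 4 lower. Among genes not called it was present in 8 of 18 for LPS and in 15 of 27 for the inhibitor. One *Ldha* window (chr7:46845554-46845853, plus strand) held 5 matches counted over both strands. They are not 5 separate sites, since the window held 2 copies of CACGTG, each of which is counted once on either strand. The E-box CACGTG, which contains the HIF core, occurred in 12.5% of the member windows and 7.15% of all windows. The κB site occurred in 6 member windows and 8.46% of all windows, and the core of the antioxidant response element, TGACNNNGC, in 8.93% of member windows and 12.4% of all. A match describes letters in the window and no binding was measured.

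LPS raised 7 of the 38 genes and lowered 12 relative to untreated cells by limma with adjusted p under 0.05, and 19 did not pass. Over all gene names 7.98% were called higher and 12.8% lower, and over those well above background in at least 1 group 13.8% and 23%, beside 18.4% and 31.6% of the members. The genes raised by LPS were *Slc2a6*, *Hk2*, *Pfkl*, *Pfkp*, *Pfkfb3*, *Pdk3* and *Hif1a*. The genes lowered included *Gpi1*, *Pfkm*, *Pfkfb2*, *Pfkfb4*, *Aldoc*, *Gapdh*, *Pgam1*, *Pdk2*, *H6pd*, *Taldo1* and *Tkt*.

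The balance between rises and falls depended on the scaling of the arrays. With each array scaled to its 75th percentile in place of quantile normalization, 12 members were called higher and 7 lower (31.6% and 18.4%), and the members' median difference was 0.20 in place of −0.30. Over all gene names that scaling called 35% higher and 11.6% lower, and over those above background 20.7% and 21%. The share called higher grew for the members and for both backgrounds. The share called lower fell from 31.6% to 18.4% for the members. It moved less in the backgrounds, from 12.8% to 11.6% of all gene names and from 23% to 21% of those above background. That scaling moved the median difference of all gene names well above background from −0.19 to 0.05 and that of all gene names from 0.00 to 0.40. Relative to the median of gene names above background, the members' median was −0.11 with quantile normalization and 0.15 with 75th percentile scaling. The 7 genes raised by LPS were called under both scalings, as were *Pfkm*, *Pfkfb2*, *Pfkfb4*, *Pdk2* and *H6pd* among those lowered. The falls of *Gpi1*, *Aldoc*, *Gapdh*, *Pgam1*, *Taldo1* and *Tkt* did not pass with 75th percentile scaling, where *Gapdh* and *Tkt* had differences above 0. With any 1 untreated or LPS array left out, 1 to 3 members were called higher and 1 to 4 lower, beside 3.28% to 6.09% and 4.73% to 7.42% of all gene names.

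**Figure D1:**
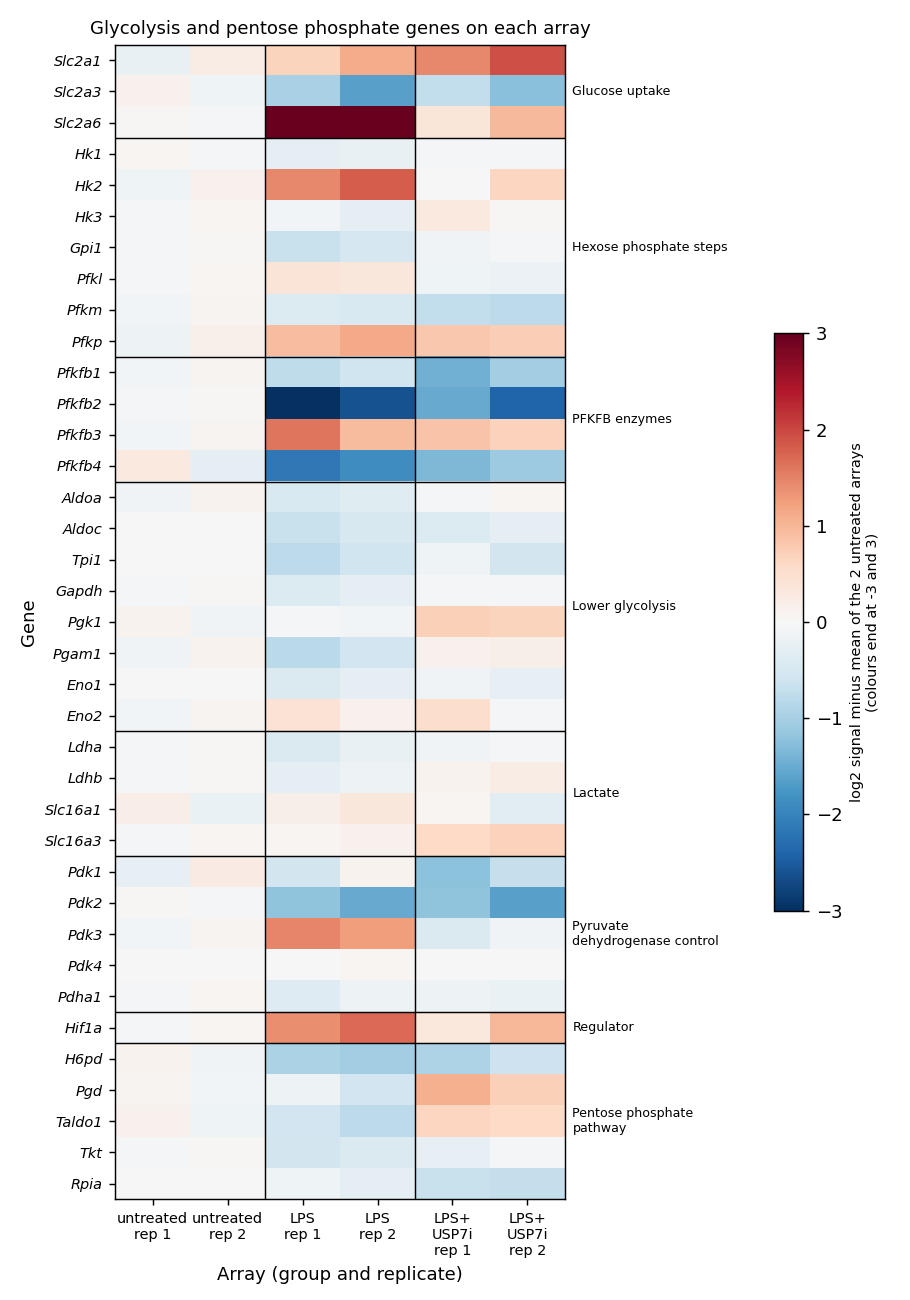
Log2 signal of 37 of the 38 genes on each of the 6 arrays minus the mean of the 2 untreated arrays, after quantile normalization, with genes in rows by role, arrays in columns and red for values above untreated. *Slc2a6*, *Hk2*, *Hif1a* and *Pdk3* are red on both LPS arrays and paler or blue on the LPS+USP7i arrays, and *Taldo1* and *Pgd* are red on both LPS+USP7i arrays and blue on both LPS arrays.

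With the inhibitor, 6 of the 38 genes were higher than with LPS alone, 4 were lower and 28 did not pass. The background was 5.51% higher and 4.28% lower over all gene names, and 9.73% and 7.29% over those well above background, beside 15.8% and 10.5% of the members. *Gpi1*, *Pgk1*, *Pgam1*, *Slc16a3*, *Pgd* and *Taldo1* were higher, and *Slc2a6*, *Pfkl*, *Pdk3* and *Rpia* were lower. The median difference of the 38 genes was 0.23, and 0.06 over all gene names above background. Under 75th percentile scaling 2 members were higher (*Pgd*, *Taldo1*) and 3 were lower (*Slc2a6*, *Pfkl*, *Pdk3*), with a median of 0.08, beside 4.93% and 4.08% of all gene names and 8.6% and 7.17% of those above background. A limma fit of only the LPS and LPS+USP7i arrays called 0 members in either direction and 0 of all gene names, although 12 were higher and 6 lower at an unadjusted p under 0.05. With any 1 of the 6 arrays left out, limma called 0 members higher, and only *Slc2a6* and *Pdk3* lower, these when an LPS+USP7i array was the one left out. Over all gene names those fits called 0 to 5.47% higher and 0 to 3.41% lower, with 0 of both where an untreated array was left out. In the same fits 9 to 14 members were higher and 5 to 7 lower at an unadjusted p under 0.05.

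Compared with untreated cells, LPS+USP7i cells had 4 genes higher (*Slc2a1*, *Pfkp*, *Pgk1* and *Slc16a3*) and 5 lower (*Pfkm*, *Pfkfb1*, *Pdk2*, *H6pd* and *Rpia*). Over all gene names 6.15% were higher and 8.72% lower, and over those above background 10.8% and 15.6%, so the members' 10.5% and 13.2% lay near the background. All 9 calls stood with 75th percentile scaling, which added 8 higher (*Slc2a6*, *Hk3*, *Pfkfb3*, *Aldoa*, *Gapdh*, *Pgd*, *Taldo1* and *Pdk4*, the last at background) and 2 lower (*Pfkfb2* and *Pfkfb4*), while the shares of all gene names rose to 35.1% and 9.65%, and of those above background to 20.1% and 17.4%. With 1 of the 6 arrays left out, 0 or 1 member was called higher and 0 to 3 lower, beside 1.37% to 5.74% and 1.63% to 5.62% of all gene names. All comparisons share arrays, so their differences are given side by side for each gene.

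**Figure D2:**
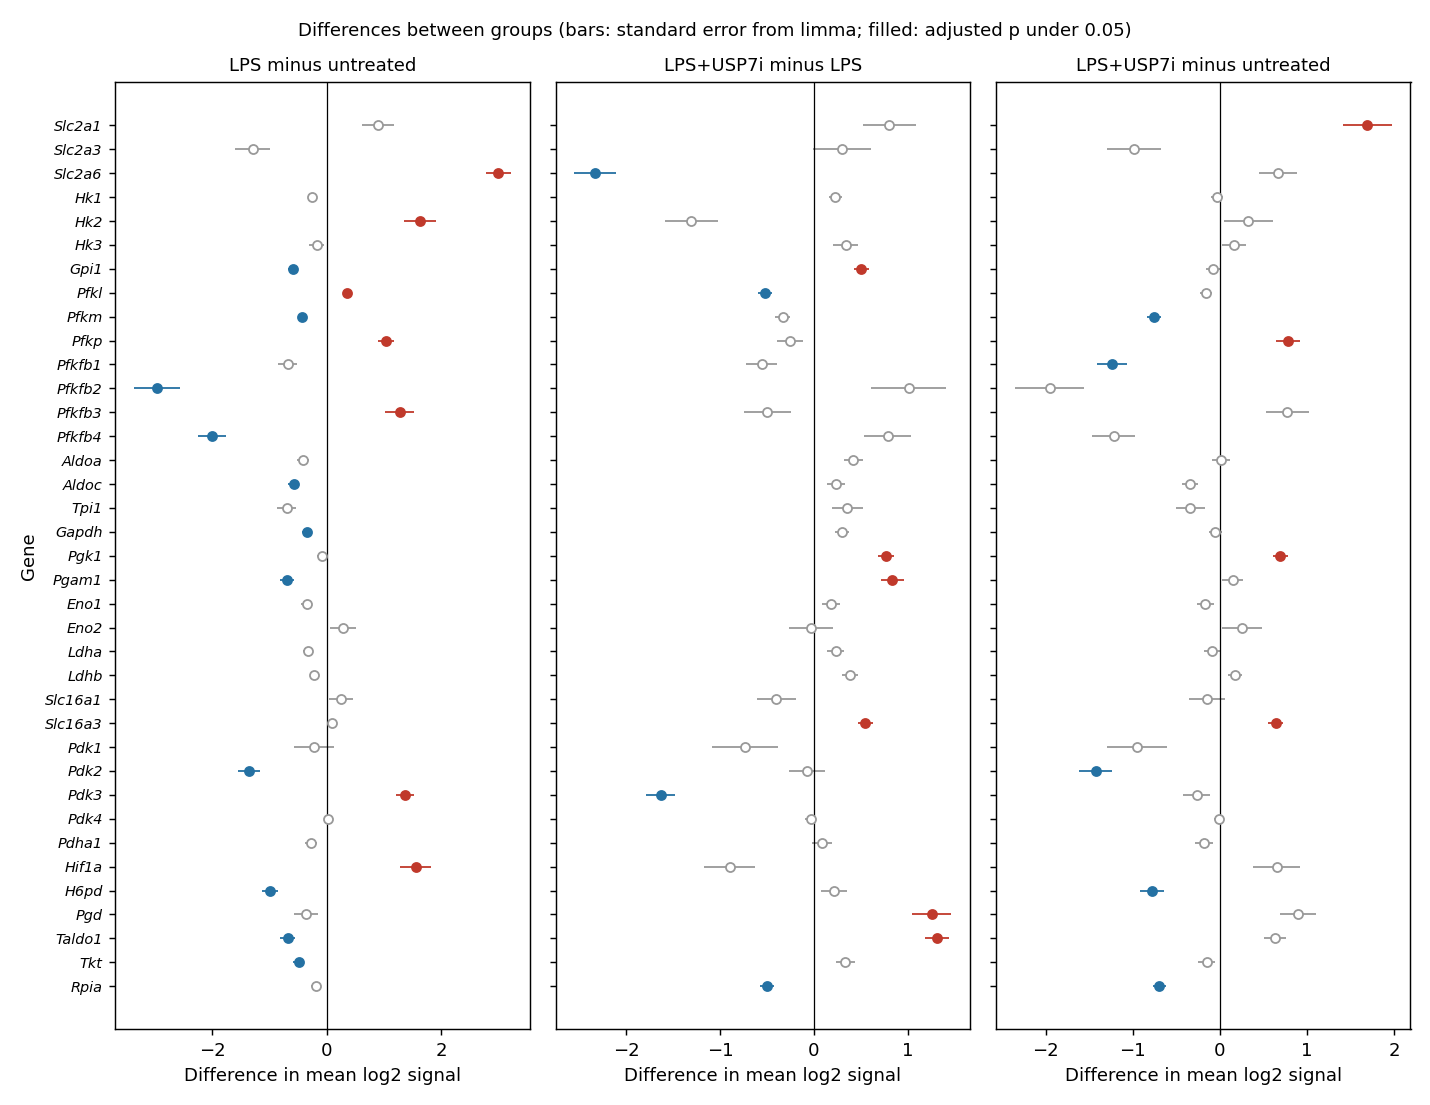
Difference in mean log2 signal for 37 of the 38 genes in the 3 comparisons, with bars for the standard error from limma and filled points for adjusted p under 0.05 (red higher, blue lower). Among those plotted, LPS gave 7 red and 11 blue points, the inhibitor on top of LPS gave 6 and 4, and LPS+USP7i against untreated gave 4 and 5.

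Glucose uptake held the largest rise with LPS and the largest fall with the inhibitor among the 38 genes. *Slc2a6*, which encodes the transporter GLUT6, had log2 signals of 13.71 and 13.66 in untreated cells, 16.71 and 16.67 after LPS and 14.06 and 14.66 after LPS+USP7i. Both LPS arrays lay far above the other 4, and the LPS+USP7i arrays lay between the LPS and the untreated arrays. LPS raised *Slc2a6* by 3.0 (standard error 0.22, adjusted p = 0.00525), a 7.99-fold increase, and this call held in all 18 alternatives run (adjusted p 0.000114 to 0.0427). With the inhibitor it fell 5.03-fold (log2 difference −2.33, standard error 0.22, adjusted p = 0.0187), and the replicate differences were −2.65 and −2.01. The decrease passed in 13 of 18 alternatives (adjusted p 0.000806 to 0.08). LPS+USP7i cells lay 0.67 above untreated cells, with both replicates above, a difference that did not pass (adjusted p = 0.161) but did in 4 of 18 alternatives, among them 75th percentile scaling, at 1.01 (adjusted p = 0.0443). The alternatives overlap, as set out under the processing, so their number is not a number of independent checks. A second *Slc2a6* probe gave a rise of 3.44 and a decrease of −2.45, both past the threshold, and 0.99 above untreated (adjusted p = 0.0789). The main probe lies at chr2:26876891-26876950 (mm9).

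*Slc2a1*, which encodes GLUT1, the basal glucose transporter, was highest in LPS+USP7i cells. Its log2 signals were 11.41 and 11.84 in untreated cells, 12.30 and 12.73 after LPS and 13.07 and 13.56 after LPS+USP7i, so that each group lay above the one before with no overlap. Neither single step passed (0.89 with LPS, adjusted p = 0.128, and 0.80 with the inhibitor, adjusted p = 0.204), while the difference between LPS+USP7i and untreated cells did, at 1.69 (standard error 0.28, adjusted p = 0.0348) or 3.23-fold. The LPS step passed with 75th percentile scaling, at 1.23 (adjusted p = 0.0332). With the replicate number as a block both steps of *Slc2a1* passed (adjusted p = 0.015 with LPS and 0.038 with the inhibitor). *Slc2a3*, which encodes the high affinity transporter GLUT3, read 9.0 and 8.76 in untreated cells, 7.91 and 7.26 after LPS and 8.14 and 7.64 after LPS+USP7i. Untreated arrays were the highest and the other groups overlapped. Its differences of −1.29 with LPS (adjusted p = 0.0672) and 0.30 with the inhibitor (adjusted p = 0.662) did not pass. The LPS difference of *Slc2a3*, −1.28 with 75th percentile scaling, then did (adjusted p = 0.0272).

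The 3 hexokinases, which trap glucose as glucose 6-phosphate, differed from each other. *Hk2*, the inducible form, read 9.66 and 9.90 in untreated cells, 11.23 and 11.59 after LPS and 9.78 and 10.43 after LPS+USP7i. The LPS arrays were above all others, and the LPS+USP7i values overlapped those of untreated cells. LPS raised *Hk2* by 1.63 (standard error 0.28, adjusted p = 0.0305), a 3.09-fold increase. The inhibitor difference of −1.31 (standard error 0.28, adjusted p = 0.0776) did not pass, although both replicates were lower, and it passed with dim probes left out, with normexp background correction and with the replicate number as a block. *Hk3*, a form of blood cells, read 14.04 and 14.18, 14.03 and 13.83, and 14.40 and 14.15 in the order untreated, LPS, LPS+USP7i. The 3 groups lay close together. It passed no threshold (−0.18 with LPS, adjusted p = 0.508, and 0.34 with the inhibitor, adjusted p = 0.254), and the LPS difference was 0.38 with 75th percentile scaling (adjusted p = 0.0396).

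*Hk1*, the constitutive hexokinase, depended on the probe. The brightest of its 3 probes read 16.62 and 16.52 in untreated cells, 16.27 and 16.34 after LPS and 16.52 and 16.54 after LPS+USP7i. It passed in no comparison (−0.27 with LPS, adjusted p = 0.084). The array files place this probe on chromosome 5, whereas RefSeq places *Hk1* on chromosome 10, where the files put the other two probes. Those gave LPS differences of 0.42 (adjusted p = 0.191) and, for the dimmest, 1.0 (adjusted p = 0.0162). The dimmest probe was also higher in LPS+USP7i than in untreated cells, by 0.79 (adjusted p = 0.0354), so the direction of *Hk1* is uncertain.

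The next step gave a fall and a return. *Gpi1*, glucose 6-phosphate isomerase, read 16.03 and 16.09 in untreated cells, 15.39 and 15.55 after LPS and 15.95 and 16.00 after LPS+USP7i. Both LPS arrays were the lowest with no overlap, and the LPS+USP7i arrays lay just under the untreated ones. *Gpi1* fell by 0.59 with LPS (standard error 0.08, adjusted p = 0.0178) and was 0.51 higher with the inhibitor (standard error 0.08, adjusted p = 0.043). The LPS difference was −0.02 with 75th percentile scaling (adjusted p = 0.915), where the inhibitor difference of 0.36 did not pass either (adjusted p = 0.232). Its 3 probes gave −0.51 to −0.59 with LPS and 0.40 to 0.52 with the inhibitor. Only the brightest passed with the inhibitor (adjusted p = 0.191 and 0.0693 for the others). The probe at −0.51 did not pass with LPS (adjusted p = 0.0855). The inhibitor call passed in 6 of 18 alternatives and was lost with the replicate number as a block.

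The 3 subunits of phosphofructokinase-1, which commits sugar to glycolysis, moved in different directions. *Pfkp*, the platelet form, read 10.98 and 11.26 in untreated cells, 12.06 and 12.26 after LPS and 11.94 and 11.87 after LPS+USP7i. It was higher on all 4 LPS-treated arrays. LPS raised it by 1.04 (standard error 0.14, adjusted p = 0.016), or 2.05-fold. With the inhibitor *Pfkp* remained above untreated by 0.78 (adjusted p = 0.0389), and the difference from LPS alone, −0.26, did not pass (adjusted p = 0.416).

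*Pfkl*, the liver form, read 9.27 and 9.39 in untreated cells, 9.71 and 9.67 after LPS and 9.20 and 9.15 after LPS+USP7i. The LPS arrays were the highest and the LPS+USP7i arrays the lowest. It rose by 0.36 with LPS (standard error 0.07, adjusted p = 0.0433), 1.28-fold, and fell by 0.52 with the inhibitor (standard error 0.07, adjusted p = 0.0333), 1.43-fold. With the replicate number as a block neither call of *Pfkl* passed (adjusted p = 0.0773 and 0.0652). *Pfkm*, the muscle form, read 9.64 and 9.80, 9.32 and 9.27, and 8.98 and 8.94 in the same order, falling from group to group without overlap. LPS lowered *Pfkm* by 0.43 (standard error 0.08), with adjusted p = 0.0374, a fall that was not called with the replicate number as a block. The further difference of −0.33 with the inhibitor did not pass (adjusted p = 0.0967), and the sum of both, −0.76 against untreated, did (adjusted p = 0.0139).

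**Figure D3:**
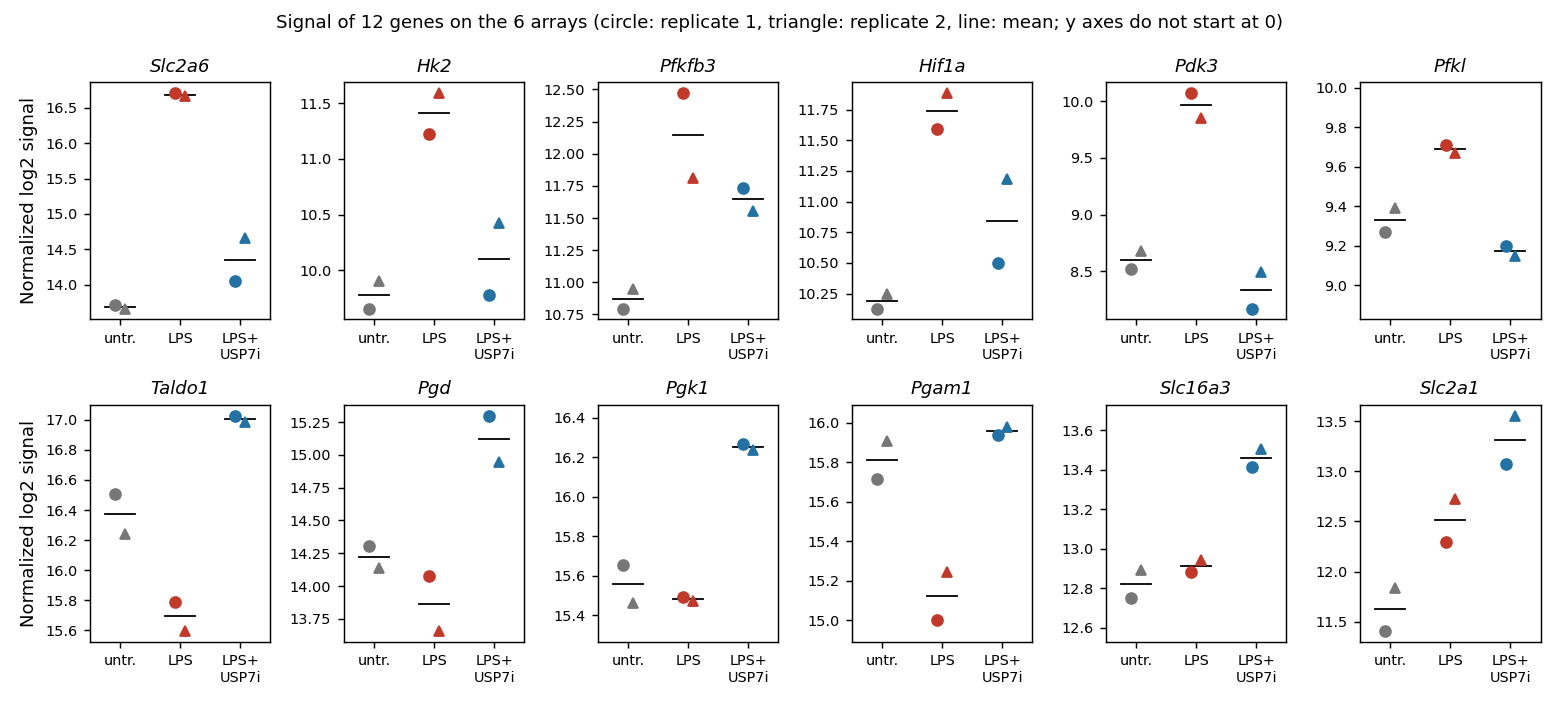
Normalized log2 signal of 12 genes in untreated, LPS and LPS+USP7i cells, with circles for replicate 1, triangles for replicate 2 and a line for the mean of each group. In the plots of *Slc2a6*, *Hk2*, *Pdk3* and *Pfkl* the LPS arrays are the highest, and in those of *Taldo1*, *Pgd*, *Pgk1*, *Slc16a3* and *Slc2a1* the LPS+USP7i arrays are.

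The PFKFB enzymes make and break fructose 2,6-bisphosphate, the activator of phosphofructokinase-1, and LPS raised 1 of the 4 and lowered 2 (1 and 3 with 75th percentile scaling), beside 13.8% and 23% of gene names above background (20.7% and 21%). *Pfkfb3*, the form with the highest kinase activity, read 10.80 and 10.95 in untreated cells, 12.47 and 11.81 after LPS and 11.73 and 11.56 after LPS+USP7i. All 4 LPS-treated arrays lay above untreated, and the LPS replicates were far apart. The rise of *Pfkfb3* with LPS was 1.27 (standard error 0.25, adjusted p = 0.0418), 2.41-fold, and the inhibitor difference of −0.50 did not pass (adjusted p = 0.385). The rise was not called with the replicate number as a block.

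*Pfkfb4* moved the other way. It read 11.39 and 10.82 in untreated cells, 8.96 and 9.25 after LPS and 9.76 and 10.02 after LPS+USP7i. The LPS arrays were the lowest and the LPS+USP7i arrays lay between. It fell by 2.0 (standard error 0.25, adjusted p = 0.0141), or 4.01-fold, and the inhibitor difference of 0.79 did not pass (adjusted p = 0.169).

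*Pfkfb2* was well above background on both untreated arrays, on no LPS array and on 1 LPS+USP7i array. Its log2 signals were 6.63 and 6.70 in untreated cells, 3.34 and 4.05 after LPS and 5.14 and 4.27 after LPS+USP7i. Against the lowest signal counted as above background on each LPS array, it was at least 4.52-fold lower with LPS than in untreated cells (adjusted p = 0.017 for the fitted difference). That size depended on the background correction, since normexp, which adds an offset to dim signals, gave a fitted difference of −0.99 (adjusted p = 0.000663), and the fall passed in 15 of 18 alternatives. Between LPS+USP7i and LPS no bound is given for *Pfkfb2*, since only 1 of the 2 LPS+USP7i arrays was above background, and the fitted difference did not pass (adjusted p = 0.258). *Pfkfb1* read 7.33 and 7.49, 6.65 and 6.80, and 5.97 and 6.37 in untreated, LPS and LPS+USP7i cells, again in falling order with no overlap. Neither step of *Pfkfb1* passed (−0.68 with LPS, adjusted p = 0.0714, and −0.56 with the inhibitor, adjusted p = 0.154), while LPS+USP7i cells were lower than untreated cells by 1.24 (adjusted p = 0.0223), 2.36-fold. The LPS step passed with 75th percentile scaling, at −0.71 (adjusted p = 0.0113).

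In the lower part of glycolysis LPS lowered 3 of 8 genes and raised 0, and the median difference was −0.38, beside 23% lowered and a median of −0.19 over all gene names above background, but with 75th percentile scaling the median was 0.22 and 1 gene (*Pgk1*) was higher and 0 were lower. With the inhibitor 2 of the 8 were higher than with LPS alone and the median was 0.33, beside 9.73% higher and a median of 0.06 over gene names above background. Scaled to the 75th percentile these were 0 calls and 0.16, beside 8.6% and 0.011. *Pgam1*, phosphoglycerate mutase, read 15.72 and 15.91 in untreated cells, 15.00 and 15.24 after LPS and 15.94 and 15.98 after LPS+USP7i. Both LPS arrays were lower than all others. It fell by 0.69 with LPS (standard error 0.12, adjusted p = 0.032) and was 0.84 higher with the inhibitor (standard error 0.12, adjusted p = 0.0362), a 1.78-fold difference. The *Pgam1* differences were −0.10 and 0.66 with 75th percentile scaling, with adjusted p of 0.686 and 0.121.

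*Pgk1*, phosphoglycerate kinase, the first step that yields ATP, read 15.66 and 15.46 in untreated cells, 15.49 and 15.47 after LPS and 16.27 and 16.23 after LPS+USP7i. Untreated and LPS arrays overlapped in range, and the LPS+USP7i arrays lay above all 4. The inhibitor difference was 0.77 (standard error 0.09, adjusted p = 0.0239), 1.70-fold, and the difference from untreated was 0.69 (adjusted p = 0.0192). Scaled to the 75th percentile, *Pgk1* was 0.60 higher with the inhibitor (adjusted p = 0.0545) and 0.50 higher with LPS (adjusted p = 0.022). The array files place the single *Pgk1* probe on chromosome 3, whereas RefSeq places the gene on chromosome X, so a near-identical copy elsewhere in the genome cannot be told apart from *Pgk1*.

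*Gapdh*, often used as a control gene, read 17.99 and 18.07, 17.62 and 17.74, and 17.97 and 17.99 in untreated, LPS and LPS+USP7i cells. The LPS arrays were the lowest, at a small difference of −0.35 (standard error 0.07, adjusted p = 0.0482) that became 0.29 with 75th percentile scaling (adjusted p = 0.07). Only this, the brightest of 8 *Gapdh* probes, was called, and the array files place it on chromosome 7 and not on chromosome 6 with the gene. The other probes gave LPS differences of −0.14 to −0.40. The call of *Gapdh* was also lost with the replicate number as a block. *Aldoc*, an aldolase, read 13.42 and 13.39, 12.74 and 12.92, and 13.00 and 13.13 in the same order, with the LPS arrays the lowest and no overlap between groups. It fell by 0.58 with LPS (adjusted p = 0.0262), which was −0.10 with 75th percentile scaling (adjusted p = 0.617), and its inhibitor difference of 0.24 did not pass (adjusted p = 0.255).

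The other 4 genes of this stretch passed in no comparison of the main fit. In alternatives *Tpi1* passed with LPS in 6 of 18, among them normexp and dim probes left out. *Aldoa* passed in 2 of 18 with LPS and in 2 of 18 between LPS+USP7i and untreated cells. LPS differences were −0.41 for *Aldoa* (adjusted p = 0.0782), the main aldolase, and −0.70 for *Tpi1* (adjusted p = 0.0653), triosephosphate isomerase. They were −0.35 for *Eno1* (adjusted p = 0.0967) and 0.28 for *Eno2* (adjusted p = 0.54), both enolases. With the inhibitor they differed from LPS alone by 0.42, 0.36, 0.18 and −0.03 in the same order. With 75th percentile scaling the LPS differences of *Aldoa* and *Eno1* were 0.24 and 0.21, so their direction depended on the scaling. The single *Eno1* probe is placed on chromosome 2 by the array files and the gene on chromosome 4 by RefSeq.

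Among genes of lactate, LPS changed 0 of 4 by limma (1 of them at an unadjusted p under 0.05) and 1 was higher with the inhibitor. Among gene names above background LPS called 13.8% higher and 23% lower, and 9.73% were higher with the inhibitor. *Slc16a3*, which encodes the lactate exporter MCT4, read 12.75 and 12.89 in untreated cells, 12.88 and 12.94 after LPS and 13.41 and 13.51 after LPS+USP7i. Untreated and LPS arrays overlapped, and the LPS+USP7i arrays were above all 4. *Slc16a3* was 0.55 higher than with LPS alone (standard error 0.08, adjusted p = 0.0377) and 0.64 higher than in untreated cells (standard error 0.08, adjusted p = 0.0198), 1.46-fold and 1.56-fold. A second probe gave 0.50 (adjusted p = 0.0621) and 0.65 (adjusted p = 0.0279). With 75th percentile scaling the difference from LPS alone was 0.35 (adjusted p = 0.245), and LPS alone raised *Slc16a3* by 0.56 (adjusted p = 0.0257).

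*Ldha*, which reduces pyruvate to lactate, read 16.96 and 17.01 in untreated cells, 16.56 and 16.76 after LPS and 16.87 and 16.92 after LPS+USP7i. The LPS arrays were the lowest, but the differences of −0.32 with LPS (adjusted p = 0.102) and 0.23 with the inhibitor (adjusted p = 0.257) did not pass, and the LPS difference was 0.29 with 75th percentile scaling. *Ldhb*, the form that favours pyruvate, read 9.42 and 9.46, 9.17 and 9.29, and 9.55 and 9.67 in untreated, LPS and LPS+USP7i cells. Its inhibitor difference of 0.38 did not pass (adjusted p = 0.0748). *Slc16a1*, which encodes the transporter MCT1, read 5.83 and 5.44, 5.80 and 5.97, and 5.68 and 5.29, with overlap between untreated cells and each of the other groups. It passed in no comparison (0.25 with LPS, adjusted p = 0.545).

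The kinases that switch off pyruvate dehydrogenase split, with *Pdk3* raised and *Pdk2* lowered by LPS. *Pdk3* read 8.52 and 8.68 in untreated cells, 10.07 and 9.85 after LPS and 8.17 and 8.49 after LPS+USP7i. The LPS arrays stood above all 4 others, and the LPS+USP7i arrays lay below the untreated ones. LPS raised *Pdk3* by 1.36 (standard error 0.15, adjusted p = 0.0118), 2.57-fold, and with the inhibitor it fell by 1.63 (standard error 0.15, adjusted p = 0.0191), 3.09-fold, to a level 0.27 below untreated that did not pass (adjusted p = 0.436). The replicate differences were −1.90 and −1.36, and the decrease passed in 13 of 18 alternatives (adjusted p 0.000791 to 0.072). The *Pdk3* probe lies at chrX:91010227-91010286 (mm9), and its promoter window with 1 HIF core is printed above.

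*Pdk2* read 8.53 and 8.48 in untreated cells, 7.30 and 7.01 after LPS and 7.29 and 6.87 after LPS+USP7i. All 4 LPS-treated arrays were lower than the untreated arrays and overlapped each other. It fell by 1.35 with LPS (standard error 0.19, adjusted p = 0.0186), 2.56-fold, and the difference of −0.07 with the inhibitor did not pass (adjusted p = 0.917). *Pdk1*, a HIF target, differed by −0.22 with LPS (adjusted p = 0.808) and −0.73 with the inhibitor (adjusted p = 0.351). *Pdha1*, the catalytic subunit of pyruvate dehydrogenase, differed by −0.27 (adjusted p = 0.194) and 0.09 (adjusted p = 0.713). *Pdk4* stayed at background on every array, with log2 signals between 1.91 and 1.99, so no direction is given for it.

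*Hif1a*, the subunit of HIF-1 that hypoxia stabilizes, read 10.13 and 10.25 in untreated cells, 11.59 and 11.88 after LPS and 10.50 and 11.18 after LPS+USP7i. LPS arrays were the highest and the LPS+USP7i arrays lay between, with a wide gap between replicates. LPS raised *Hif1a* by 1.55 (standard error 0.27, adjusted p = 0.031), 2.93-fold. The difference of −0.90 with the inhibitor did not pass (standard error 0.27, adjusted p = 0.152), nor did that of 0.65 from untreated (adjusted p = 0.25). A second *Hif1a* probe was at background on all arrays. Transcript level says nothing of the HIF-1α protein, which was not measured on these arrays.

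**Figure D4:**
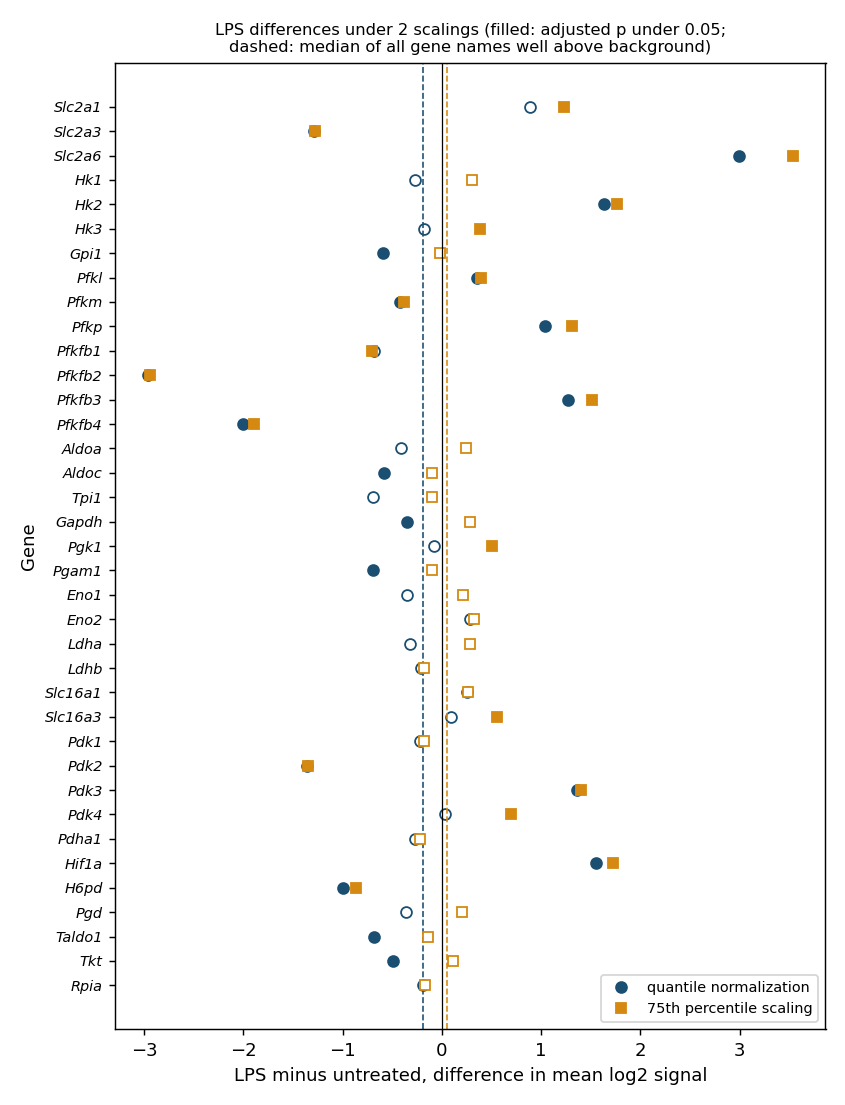
Difference in mean log2 signal between LPS and untreated cells for 37 of the 38 genes under quantile normalization (circles) and 75th percentile scaling (squares), filled where adjusted p was under 0.05, with dashed lines at the median of gene names above background (−0.19 and 0.05). Bright genes such as *Gapdh*, *Aldoa* and *Tkt* cross 0, and *Slc2a6*, *Hk2*, *Pdk3*, *Hif1a*, *Pfkfb4* and *Pdk2* lie on the same side under both.

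In the pentose phosphate pathway LPS lowered 4 of 6 genes and raised 0, with all 6 differences below 0 and a median of −0.55, beside 23% lowered and a median of −0.19 over all gene names above background. With 75th percentile scaling 1 was lower, 4 differences were below 0 and 2 above, and the median was −0.08. Beside these, 21% of gene names above background were lower, with a median of 0.05. With the inhibitor 2 of the 6 were higher than with LPS alone and 1 was lower, beside 9.73% and 7.29% of gene names above background, and these 2 higher calls stood under both scalings.

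*Pgd*, 6-phosphogluconate dehydrogenase, which makes the second NADPH of the pathway, read 14.30 and 14.14 in untreated cells, 14.07 and 13.66 after LPS and 15.30 and 14.95 after LPS+USP7i. The LPS+USP7i arrays were above all others. It did not pass with LPS (−0.36, adjusted p = 0.397) and was 1.26 higher with the inhibitor than with LPS alone (standard error 0.21, adjusted p = 0.0456), a 2.39-fold difference. This passed in 11 of 18 alternatives, with adjusted p from 0.00529 to 0.138. For *Pgd*, which has a single probe, the alternatives on the probe and on the threshold repeat the main fit. Against untreated cells the difference of 0.90 did not pass (adjusted p = 0.0736), and with 75th percentile scaling, at 1.29, it did (adjusted p = 0.00675). The *Pgd* probe lies at chr4:148524293-148524352 (mm9), and 1 of its promoter windows (chr4:149166033-149166332, minus strand, GRCm38.p6) held the core of the antioxidant response element.

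*Taldo1*, transaldolase of the non-oxidative branch, gave the largest rise with the inhibitor among the 38 genes. It exceeded that of *Pgd* (1.26) by less than their standard errors (0.13 and 0.21). *Taldo1* read 16.51 and 16.24 in untreated cells, 15.79 and 15.60 after LPS and 17.03 and 16.98 after LPS+USP7i. LPS arrays were the lowest and LPS+USP7i arrays the highest, with no overlap. LPS lowered *Taldo1* by 0.68 (standard error 0.13, adjusted p = 0.0376), a fall that was −0.14 with 75th percentile scaling (adjusted p = 0.422). With the inhibitor it was 1.31 higher than with LPS alone (standard error 0.13, adjusted p = 0.0196), or 2.49-fold, by 1.24 in replicate 1 and 1.39 in replicate 2. This passed in 11 of 18 alternatives (adjusted p 0.00113 to 0.0737), and the difference of 0.63 from untreated cells did not pass (adjusted p = 0.0557). That difference was 1.03 with 75th percentile scaling (adjusted p = 0.00675), and it passed in 5 of 18 alternatives. The *Taldo1* probe lies at chr7:148588764-148588823 (mm9).

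*H6pd*, the hexose 6-phosphate dehydrogenase of the endoplasmic reticulum, read 11.26 and 11.06 in untreated cells, 10.21 and 10.12 after LPS and 10.23 and 10.53 after LPS+USP7i. All 4 LPS-treated arrays were lower than untreated. It fell by 0.99 with LPS (standard error 0.14, adjusted p = 0.019), 1.99-fold, and LPS+USP7i cells were still 0.78 below untreated cells (adjusted p = 0.0421). The latter call was lost with the replicate number as a block. *Tkt*, transketolase, read 15.54 and 15.61, 15.03 and 15.14, and 15.33 and 15.52 in untreated, LPS and LPS+USP7i cells. It fell by 0.49 with LPS (standard error 0.10, adjusted p = 0.0438), a difference that was 0.11 with 75th percentile scaling (adjusted p = 0.619), and its inhibitor difference of 0.34 did not pass (adjusted p = 0.143).

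*Rpia*, ribose 5-phosphate isomerase, was the 1 gene of the pathway called lower with the inhibitor. It read 8.46 and 8.46 in untreated cells, 8.34 and 8.19 after LPS and 7.78 and 7.75 after LPS+USP7i, and the LPS+USP7i arrays were the lowest. The LPS difference of −0.19 did not pass (adjusted p = 0.201). *Rpia* fell by 0.50 with the inhibitor relative to LPS alone (standard error 0.07, adjusted p = 0.038), 1.42-fold, and by 0.69 relative to untreated cells (standard error 0.07, adjusted p = 0.0145). With 75th percentile scaling the difference from LPS alone was −0.50 (adjusted p = 0.0593), and with the replicate number as a block it was not called either.

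Over the 38 genes, 33 had groups that did not overlap between LPS and untreated cells, 33 between LPS+USP7i and LPS, and 30 between LPS+USP7i and untreated. The same held for 60.9%, 52.1% and 58.2% of all gene names, and for 78.8%, 66.3% and 72% of those above background. *Slc2a6*, *Pfkl* and *Pdk3* were called higher with LPS and lower with the inhibitor. *Gpi1*, *Pgam1* and *Taldo1* were called lower with LPS and higher with the inhibitor. With 75th percentile scaling none of these falls with LPS passed, and of the rises with the inhibitor only that of *Taldo1* did. *Hk2*, *Pfkfb3* and *Hif1a* were called for the rise with LPS only, *Pgk1* and *Slc16a3* were higher in LPS+USP7i cells than in both other groups, and *Rpia* was lower than in both. The differences of *Pgk1*, *Slc16a3* and *Rpia* from LPS alone did not pass with 75th percentile scaling. With the replicate number as a block *Pfkl* lost both calls, *Pfkfb3* that with LPS, and *Gpi1* and *Rpia* those with the inhibitor against LPS. Over the alternatives, the inhibitor calls of *Gpi1* and *Rpia* passed in 6 of 18 and those of *Pgam1* and *Pfkl* in 8 of 18. That of *Slc16a3* passed in 7 of 18 and that of *Pgk1* in 7 of 17. With 2 arrays per group the smallest two-sided p of an exact permutation test is 0.333, so such a test could not separate any of the genes.

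Genes of the same routes outside the 38 were read from 4 lists, to be set against the shares of all gene names given above (with LPS 7.98% higher and 12.8% lower, and 13.8% and 23% of those above background). Of 25 other genes of glycolysis and glucose entry found on the array, LPS raised 1 and lowered 4 with a median of −0.08, and with the inhibitor 2 were higher and 0 lower than with LPS, beside 5.51% and 4.28% of all gene names. Scaled to the 75th percentile, LPS raised 4 and lowered 3 of these, beside 35% and 11.6% of all gene names and 20.7% and 21% of those above background. Of the 25, 9 were well above background on no array. LPS raised *Minpp1*, an inositol phosphate phosphatase, by 1.83 (adjusted p = 0.022). It lowered the transporter genes *Slc2a8* and *Slc2a12* by differences of −1.05 and −1.02 (adjusted p = 0.00502 and 0.0156), and *Pgm2*, a phosphoglucomutase, by −0.56 (adjusted p = 0.0316), which was −0.22 with 75th percentile scaling (adjusted p = 0.293). *Hkdc1*, a hexokinase-like gene, was well above background only on the LPS+USP7i arrays, where it was at least 2.74-fold higher than with LPS (adjusted p = 0.0176) and at least 4.09-fold higher than in untreated cells (adjusted p = 0.0107). *Adpgk*, the ADP-dependent glucokinase, was 0.70 higher with the inhibitor (adjusted p = 0.0343). Against untreated cells LPS+USP7i cells had 3 of the 25 lower, *Slc2a12* by −1.10, *Bpgm*, which makes 2,3-bisphosphoglycerate, by −0.94, and *Slc2a8* by −0.84, and 1 higher, *Hkdc1*. In that comparison 8.72% of all gene names were lower and 6.15% higher, and 15.6% and 10.8% of those above background. With 75th percentile scaling 7 of the 25 were higher and 4 lower, where 35.1% and 9.65% of all gene names were. *Pkm2*, the pyruvate kinase gene as named on the array, did not pass with LPS (−0.47, adjusted p = 0.27) or the inhibitor (0.53, adjusted p = 0.263).

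Of 9 other genes of pentose and ribose phosphates, LPS raised 1 and lowered 2 with a median of −0.23. The counts became 3 and 1 with 75th percentile scaling, beside 35% and 11.6% of all gene names and 20.7% and 21% of those above background. Of the 9, 2 were well above background on no array. With the inhibitor relative to LPS limma called 0, and *Rpe*, *Shpk* and *Rbks* had an unadjusted p under 0.05. *Rpe*, ribulose 5-phosphate epimerase, rose by 0.98 with LPS (adjusted p = 0.0306), and its inhibitor difference of −0.97 did not pass (adjusted p = 0.051). *Shpk*, sedoheptulokinase, was not well above background on the LPS arrays and was at least 4.67-fold lower than in untreated cells (adjusted p = 0.00555). *Pgls*, the lactonase of the oxidative branch, fell by 0.36 with LPS (adjusted p = 0.0473), which was −0.08 with 75th percentile scaling (adjusted p = 0.467). In LPS+USP7i cells *Shpk* and *Rbks*, ribokinase, were lower than in untreated cells, by −1.85 (adjusted p = 0.0151) and −0.76 (adjusted p = 0.0206).

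Around pyruvate dehydrogenase, 4 of 10 genes were lowered by LPS and 0 raised, and 2 were higher with the inhibitor. Among gene names above background 23% were lowered by LPS and 9.73% were higher with the inhibitor, with medians of −0.19 and 0.06, beside −0.37 and 0.34 for this list. With 75th percentile scaling 3 of the 10 were lowered by LPS and 1 was higher with the inhibitor, with medians of −0.15 and 0.17. Beside these, 21% of gene names above background were lowered by LPS and 8.6% were higher with the inhibitor, with medians of 0.05 and 0.011. *Pdp1*, the phosphatase that undoes the action of the PDK kinases, fell by 1.61 with LPS (adjusted p = 0.00558) and was 1.02 higher with the inhibitor (adjusted p = 0.0263). *Pdpr*, the regulatory subunit of that phosphatase, fell by 1.17 (adjusted p = 0.00474), and *Pdp2*, a second phosphatase, by a difference of −0.76 (adjusted p = 0.00888). *Pdhb*, the beta subunit of the first enzyme of the complex, was 0.74 higher with the inhibitor (adjusted p = 0.0192), which was 0.57 with 75th percentile scaling (adjusted p = 0.0751). *Pdpr* was the 1 gene of the list called between LPS+USP7i and untreated cells, at −1.47 (adjusted p = 0.00581), whereas with 75th percentile scaling 2 were higher and 3 lower, beside 20.1% and 17.4% of gene names above background.

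The list of 21 HIF partners, regulators and hypoxia target genes outside glycolysis showed that LPS raised 3 and lowered 6, with a median of −0.38 (3, 7 and −0.32 with 75th percentile scaling). With the inhibitor 6 were higher than with LPS alone and 0 were lower, 17 of 21 differences were above 0, and the median was 0.58 (4 higher, 0 lower and 0.50 with 75th percentile scaling). Over all gene names 5.51% were higher and 4.28% lower with the inhibitor, and over those above background 9.73% and 7.29%, with a median of 0.06. With 75th percentile scaling the shares above background were 20.7% and 21% with LPS and 8.6% and 7.17% with the inhibitor. LPS raised *Adm*, adrenomedullin, by 4.98 (adjusted p = 0.00639), with 1 of 2 untreated arrays above background. It also raised *Ero1l*, an oxidoreductase of the endoplasmic reticulum, by 0.95 (adjusted p = 0.0406) and *P4ha1*, a collagen prolyl hydroxylase, by 0.71 (adjusted p = 0.025). *Ankrd37* differed by −3.83 with LPS (adjusted p = 0.00866) and by 2.24 with the inhibitor (adjusted p = 0.0473). *Vegfa*, the angiogenic growth factor, differed by −2.76 (adjusted p = 0.0162) and by 2.26 (adjusted p = 0.0441). *Kdm3a*, a histone demethylase, differed by −1.73 (adjusted p = 0.00343) and by 1.74 (adjusted p = 0.0107). *Egln3*, a prolyl hydroxylase that acts on HIF, was 2.42 higher with the inhibitor than with LPS alone (adjusted p = 0.019). Against untreated cells *Adm*, *Ero1l* and *Egln3* were higher in LPS+USP7i cells, by 5.11, 1.60 and 1.59, and *Arnt*, the partner of HIF-1α, was lower, at −0.52 (adjusted p = 0.0167), whereas with 75th percentile scaling 6 of the list were higher and 3 lower, again beside 20.1% and 17.4%.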

How the data were processed

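RNA labeled with Cy3 from 6 cultures was hybridized to 1-color Agilent mouse arrays. Per the file headers, the deposited scanner output (Feature Extraction 10.7.3.1) holds background-corrected spot intensity values and, per spot, other marks for outliers, saturation and signal above background. The authors also deposited a table of normalized log2 values. Quantile normalization and a linear model in limma, with a threshold of 0.05 on the adjusted p, are stated in the methods.

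Here log2 processed signals of non-control spots were quantile-normalized, outlier spots were treated as missing and repeated spots of a probe were averaged. All 6 arrays were fitted together with limma 3.58.1 in R 4.3.3 (residual df 3, prior df 1.05), with Benjamini-Hochberg adjustment over 55680 probes. Each gene was represented by its brightest probe. Of 59 member probes, 12 members had several, the accessions of 36 of the 38 main probes matched the symbol in RefSeq, and 34 lay on the chromosome of the gene. Where neither array of a group had a probe well above background, a bound was given, from normalized means. The exceptions were probes where both groups were at background or where only 1 array of the other group was above it. Differences are on the log2 scale, and p-values measure the spread between 2 cultures per group. The code was tested on simulated data.

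The 38 members, the lists and the tests were chosen with earlier results of these data known. Values are given for every array for called members and for uptake, hexokinase, PFKFB, lactate and pentose phosphate genes, and for up to 3 called genes per direction and comparison of each list, to which *Pkm2* was added after its values were seen. The values of 1 member are not reported here. Cell type lists covered macrophages, fibroblasts, neutrophils, T cells, B cells, erythroid and dendritic cells. Promoters were RefSeq windows of 300 bases. Replicates correlated with r of 0.996, 0.993 and 0.991 over 20721 probes in untreated, LPS and LPS+USP7i cells. Alternatives covered scaling, background correction, the deposited log2 values, dim and outlier spots, the prior, the groups in the fit, a replicate block, single arrays left out, the probe and the threshold. Those on the probe and the threshold reread the main fit, so for a gene with a single probe they can only repeat or drop its call. Leaving out an array of the group not compared gave the fit of the 2 groups compared again. Counts of alternatives passed are therefore not counts of independent checks. The choice of probes by chromosome was added after seeing the data.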

Additional observations from a re-analysis of the deposited data

How the results depend on the processing

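The number of calls moved with the scaling and with single arrays, and most directions did not. For members called higher and lower, in that order, the counts were 7 and 12 for LPS against untreated, 6 and 4 for LPS+USP7i against LPS, and 4 and 5 for LPS+USP7i against untreated. With 75th percentile scaling, with or without centring on bright probes, they were 12 and 7, 2 or 3 and 3, and 12 and 7. The deposited log2 values gave 6 and 6, 3 and 2, and 2 and 6, and normexp gave 8 and 16, 8 and 5, and 7 and 8. With dim probes left out LPS+USP7i against untreated gave 6 and 8, beside 15.4% and 21.4% of the gene names kept, so the members lay near the background. Fits of the 2 groups compared gave 5 and 10, 0 and 0, and 0 and 2. A log2 difference of at least 1 left 6 and 3, 2 and 2, and 1 and 2. Leaving out 1 array gave 1 to 5 and 1 to 10, 0 to 0 and 0 to 2, and 0 to 1 and 0 to 3. Calls over all gene names moved too, from 7225, 3410 and 5184 in the 3 comparisons to 16235, 3139 and 15579 with 75th percentile scaling, 5349, 2589 and 3982 with the deposited values, 8406, 5260 and 6747 with normexp, 6616, 0 and 3306 in fits of 2 groups, 4242, 2101 and 3004 with a difference of at least 1, and 2789 to 6616, 0 to 3095 and 1043 to 3869 with 1 array left out. In those last fits the lone array of a group was taken to have the spread of the remaining groups.

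The members' median reversed with 75th percentile scaling, without and with centring, to 0.20 and 0.19 for LPS against untreated and to 0.25 and 0.23 for LPS+USP7i against untreated. *Gapdh* reversed to 0.29 and 0.27 and *Tkt* to 0.11 and 0.089, and no other member called in a comparison changed sign in that comparison under any alternative. The cause was not tested. Of the values of called members under alternatives, 412 kept the call, 266 lost it and 4 reversed.

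Arrays of the same replicate number also lay in the same column of the slide, with 2 pairs per comparison, and the labels give no other link between them. Their deviations from the group means correlated at 0.40 to 0.47 between groups, and a replicate block gave 6 and 13, 6 and 4, and 6 and 6 calls. Over all gene names the block called 8.43% and 13.5%, 4.09% and 3.23%, and 6.35% and 9.43% in the same order. With the block *Pfkl*, *Pfkfb3*, *Pfkm* and *Gapdh* were not called with LPS, and *Slc2a1*, *Slc2a3*, *Pfkfb1* and *Aldoa* were. *Gpi1*, *Pfkl* and *Rpia* were not called with the inhibitor, and *Hk2*, *Pdk1* and *Slc2a1* were. Between LPS+USP7i and untreated cells *H6pd* was not called, and *Pgd*, *Taldo1*, *Pdk1* and *Slc2a3* were. With probes on the chromosome of the gene only, a choice made after seeing the data, 36 members had a value and the counts were 7 and 11, 5 and 4, and 3 and 5. Signal over background limits *Pfkfb2* and *Pdk4*.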
